A study of Homo sapiens with 8 samples.

Results

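SPHINX31, an inhibitor of the kinase SRPK1, was added to A549 cells that were also given indisulam, and the comparison described here is between those cells and cells given indisulam alone. It uses 4 of the 8 libraries of the series: COMBO replicates 1 and 2 (0.5 μM indisulam with 5 μM SPHINX31) against IN replicates 1 and 2 (0.5 μM indisulam), both for 24 h by the study's methods. The labels deposited with every library give 2 μM indisulam for 18 h instead, also for the libraries without indisulam. In the study's methods that dose and time belong to a pancreatic cancer line and not to A549. The counts themselves cannot tell which description applies. The other 4 libraries, UT (untreated) and SP (5 μM SPHINX31), are used for the spread and to set the SPHINX31 effect without indisulam beside the one with it. A549, a line grown from a human lung adenocarcinoma, was used at a single dose and time. The duplicates were technical, so p-values measure only the spread between libraries of a group and not the variation between independent treatments.

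Indisulam is a molecular glue that brings the splicing factor RBM39 to DCAF15, a substrate receptor of the CUL4 ubiquitin ligase, and RBM39 is then degraded. SRPK1 phosphorylates the serine and arginine-rich (SR) proteins, which bind exons and recruit the splicing machinery, and it thereby controls where in the cell these proteins sit. COMBO against IN asks which transcripts differ when SPHINX31 is added to indisulam, and it does not show through which target of SPHINX31 they do.

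The IN libraries held 58607105 and 51727369 counts on genes and the COMBO libraries 55852384 and 56291535. Of 60624 annotated genes, 18661 had enough counts to be tested, 14010 of them protein-coding. Epithelial markers were present in all 4 libraries, with KRT18 at 3735 and 3766 CPM (counts scaled to the size of the library) in IN and 3448 and 3380 in COMBO. Among the markers of other cell types, 3 of 7 fibroblast genes, 1 of 6 immune genes and 2 of 5 endothelial and erythroid genes passed the filter on low counts, and none of these 6 was called. NKX2-1, a lung lineage factor, did not pass the filter.

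SPHINX31 in the presence of indisulam changed 1399 genes at an adjusted p under 0.05 (7.50% of those tested), of which 592 (3.17%) were higher in COMBO and 807 (4.32%) were lower. The median log2 fold change was 0.41 among those called higher and -0.30 among those called lower, but the former were less abundant (median average log2 CPM 4.29 against 5.78), so these medians do not compare the size of the effect in each direction. At a fold change of at least 1.5, 214 genes were called (1.15%), 161 higher (0.863%) and 53 lower (0.284%), against 108 without COMBO replicate 2 and 130 with DESeq2. Long noncoding RNAs made up 15.2% of the genes called higher and 3.97% of those called lower, against 16.9% of all tested genes. Past 1.5-fold they were 50 of the 161 genes called higher and 22 of the 53 called lower. Among all 1335 tested genes past 1.5-fold, called or not, they were 562. The median average log2 CPM of all tested genes was 3.42, below that of both groups of called genes. The shares were not compared at equal abundance, so the part of abundance and of the fold limit in them was not tested. The 2 COMBO libraries lay on the same side of both IN libraries for all 1399 called genes, and did so for 50.8% of all tested genes. Because it held for every call, this separation adds no support to a single one. The total moved with the library left out: 696 genes were called without IN replicate 1, 609 without COMBO replicate 1 and 440 without COMBO replicate 2. Scaling by total counts alone gave 942 higher and 498 lower, so the split between directions depends on the scaling. Unless an adjusted p after leaving out a library is given, each call named below was also made in all 8 fits that left out 1 library.

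**Figure D1:**
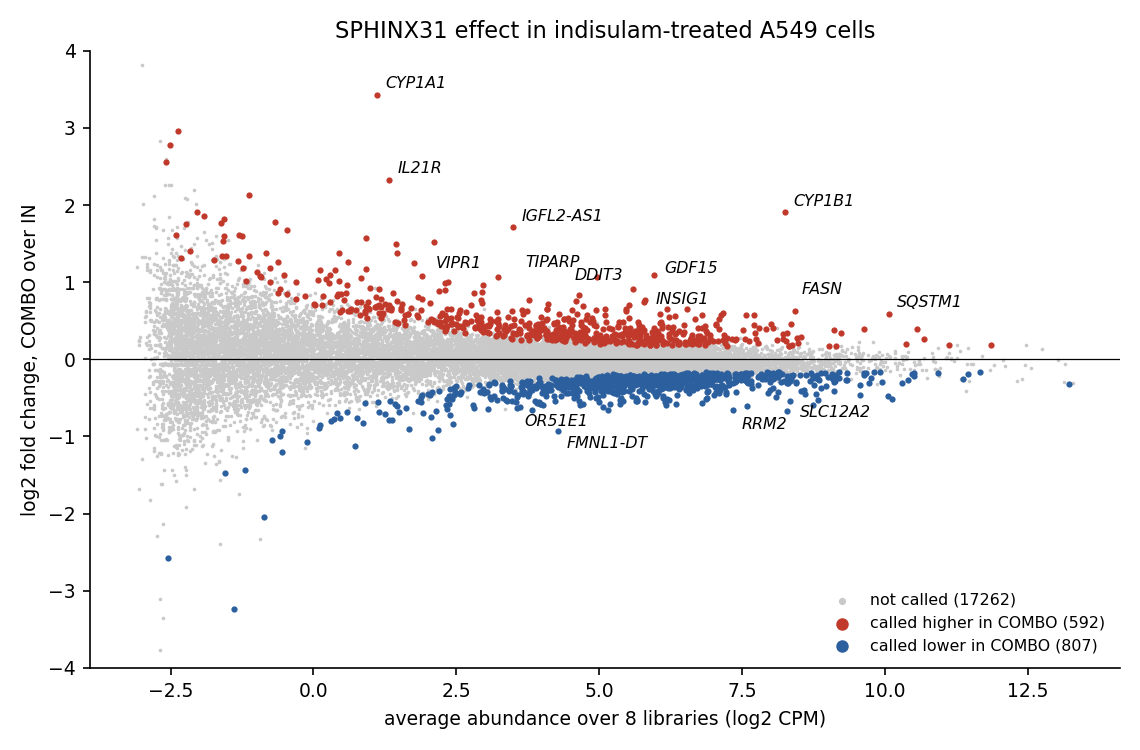
Each point is 1 of the 18661 tested genes, with its average abundance over the 8 libraries in log2 CPM on the horizontal axis and its log2 fold change of COMBO over IN on the vertical axis. Genes called higher are red (592), genes called lower are blue (807) and the others are grey; CYP1A1, IL21R, CYP1B1 and IGFL2-AS1 stand furthest above 0 among the labelled genes, while FMNL1-DT is the lowest of them.

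Target genes of the aryl hydrocarbon receptor (AHR) rose, and 3 of them, CYP1B1, VIPR1 and TIPARP, were among the 5 largest increases in genes with an average log2 CPM of 3 or more, beside IGFL2-AS1 and GDF15. AHR is a ligand-activated transcription factor that rests in the cytosol with chaperones, pairs with ARNT in the nucleus and induces enzymes that oxidise foreign compounds. Of 13 tested AHR target genes, 9 rose, none fell and 4 were not called, with a median log2 fold change of 0.59 over the list against 0.003 over all tested genes. That median is the value of AHRR, a gene near the detection limit that was not called (adjusted p = 0.38). This list and those below were chosen with earlier results of these data known. Their counts therefore describe the members and are not a test of a pathway. The shares over all tested genes, 3.17% called higher and 4.32% called lower, are to be set beside the count of each list. In fits without 1 library the number called higher was between 6 (without COMBO replicate 2) and 9. The receptor and its partners were not called, 0 of 6: AHR itself was at 64.6 and 68.5 CPM in IN and 59.7 and 65.3 in COMBO (log2 fold change -0.09, 95% interval -0.22 to 0.04), and ARNT was at 39.5 and 36.2 against 35.4 and 34.4.

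CYP1B1, a cytochrome P450 that hydroxylates estradiol and polycyclic hydrocarbons, rose from 98.1 and 97.4 CPM in IN to 339 and 395 CPM in COMBO. This was a 3.75-fold difference (log2 fold change 1.91 ± 0.07 SE, adjusted p = 8.1e-09). The gene lies at chr2:38066973-38109902 on the minus strand of GRCh38, where other annotated genes overlap it on both strands. Without indisulam its level went from 110 and 121 CPM in UT to 639 and 636 in SP. Every library with SPHINX31 was above every library without it, and both COMBO libraries were below both SP libraries.

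CYP1A1, the classical AHR target, was close to the detection limit without SPHINX31. It had 10 and 8 counts in the IN libraries and 90 and 116 in the COMBO libraries (log2 fold change 3.43 ± 0.33 SE, adjusted p = 9.9e-05). The levels were 0.17 and 0.16 CPM in IN, 1.57 and 2.03 in COMBO, and 7.29 and 5.74 in SP. The libraries of the groups did not overlap, as for every called gene, and the size of the change rests on few counts in IN.

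The 60 bases before the RefSeq start of CYP1A1, chr15:74725529-74725588 (- strand) in GRCh38.p14, are shown because they hold GCGTG, the core of the element that AHR and ARNT bind; it is in capitals.
CYP1A1: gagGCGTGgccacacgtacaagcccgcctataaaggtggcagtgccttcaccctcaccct
GCGTG or its reverse complement CACGC was found in the same window of 19.9% of the 12448 tested genes with a RefSeq promoter entry and of 18.7% of the 422 genes called higher, so the match describes this stretch and does not set these genes apart. CYP1B1 was not among the entries used here.

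The other AHR targets that rose were lower in expression or moved less. TIPARP, a mono-ADP-ribosyltransferase that feeds back on the receptor, went from 17.01 and 17.9 CPM in IN to 34.2 and 38.6 in COMBO (2.09-fold, adjusted p = 8.2e-06). VIPR1, a receptor for vasoactive intestinal peptide, went from 5.45 and 5.99 CPM to 12.8 and 11.2 (2.10-fold, adjusted p = 9.3e-05). For both genes the libraries of the groups did not overlap, as for every called gene. UGT1A6, a glucuronosyltransferase, rose 1.83-fold (6.52 and 7.42 against 12.9 and 12.6 CPM), but it shares exons with the other UGT1A genes, so the reads may belong to any of them. EREG, an EGF receptor ligand, rose 1.48-fold. AHRR, the receptor's repressor, was not called at 0.19 and 0.26 CPM in IN and 0.35 and 0.31 in COMBO (adjusted p = 0.38), nor was NQO1 at 2199 and 2332 against 2242 and 2335 CPM (adjusted p = 0.89).

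**Figure D2:**
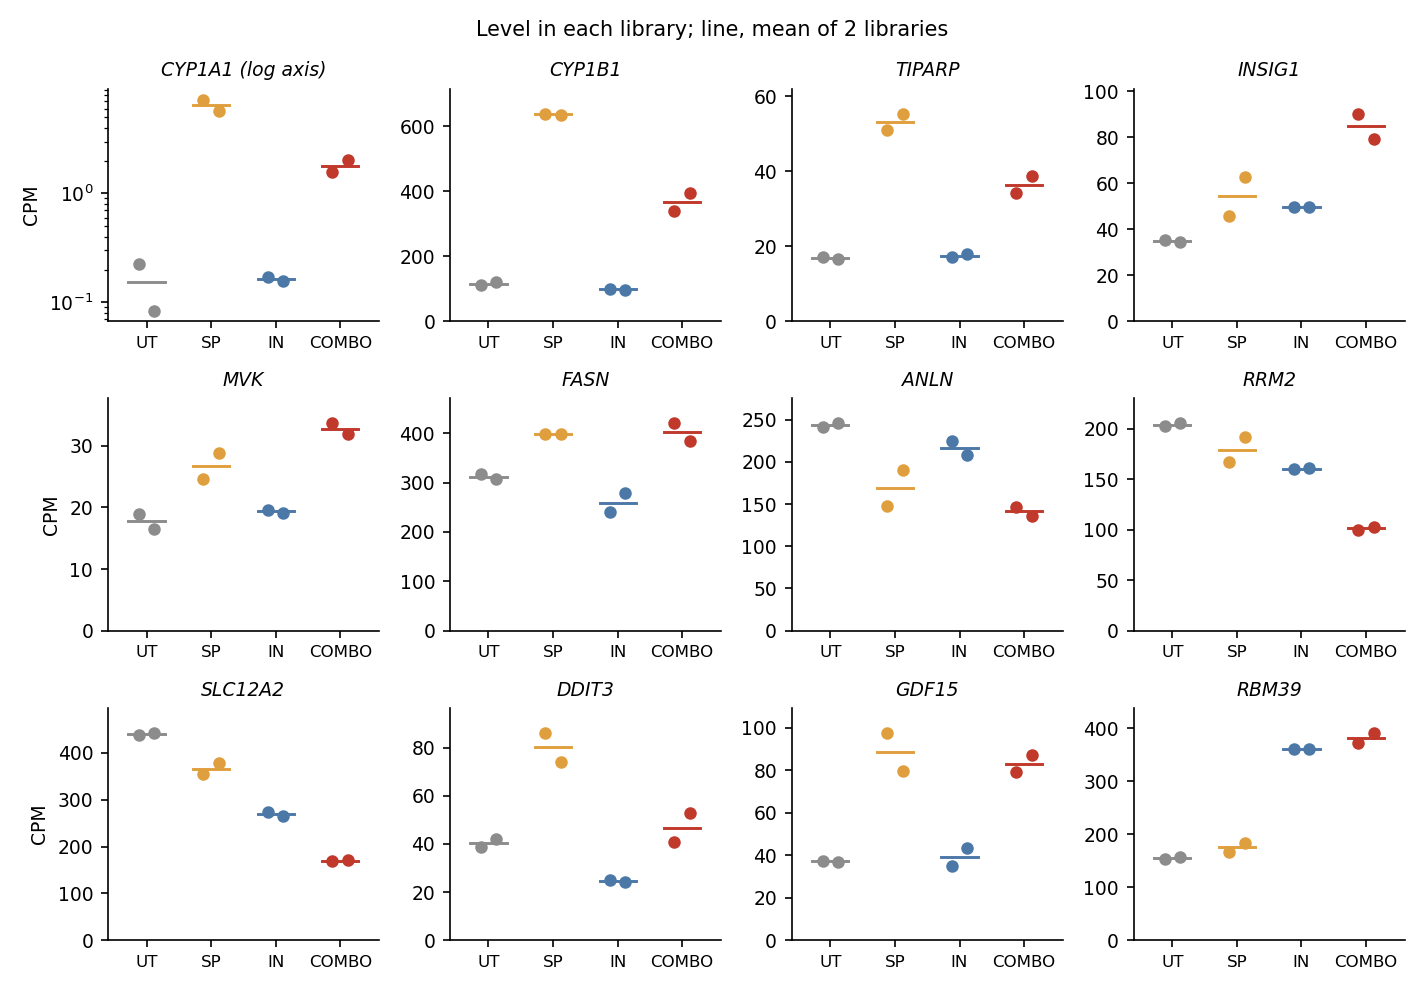
Level in CPM of 12 named genes in each of the 8 libraries (points) with the mean of the 2 libraries of each group (lines); the axis of CYP1A1 is logarithmic and the others start at 0. CYP1A1, CYP1B1 and TIPARP were higher in COMBO than in IN and higher still in SP, INSIG1, MVK and FASN were higher in COMBO than in IN, ANLN, RRM2 and SLC12A2 were lower, and RBM39 differed little between IN (361 and 360 CPM) and COMBO (373 and 391 CPM).

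Genes of cholesterol and fatty acid synthesis also rose. These enzymes are transcribed under the sterol regulatory element-binding proteins, which are released from the endoplasmic reticulum when sterols are scarce and are held there by INSIG1. Of 32 tested members, 19 rose, none fell and 13 were not called, with a median log2 fold change of 0.37. Leaving out 1 library gave 12 (without COMBO replicate 1) to 21 called members. Called members stood at the start and the end of sterol synthesis and in fatty acid synthesis and desaturation.

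INSIG1 was at 49.9 and 49.5 CPM in IN and 90.2 and 79.3 in COMBO, a 1.71-fold increase (adjusted p = 0.00096). In the mevalonate steps, MVK, which phosphorylates mevalonate, rose from 19.6 and 19.1 CPM to 33.6 and 31.8 (1.69-fold, adjusted p = 0.00024). The IN and COMBO libraries of both genes did not overlap, as for every called gene. HMGCS1, which makes HMG-CoA, rose 1.48-fold, from 78.1 and 76.3 CPM to 120 and 109 (adjusted p = 0.0044), but it was not called without COMBO replicate 1 (adjusted p = 0.061).

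Further along, FDFT1, which joins farnesyl groups into squalene, rose 1.36-fold (115 and 118 CPM in IN, 163 and 153 in COMBO). LSS, which closes the ring to lanosterol, rose 1.35-fold (30.7 and 32.0 against 44.2 and 40.5 CPM). MSMO1, a sterol demethylase, rose 1.55-fold (35.7 and 35.8 against 56.8 and 53.8 CPM), and DHCR7, the last reductase, rose 1.43-fold (87.5 and 92.0 against 134 and 123 CPM). STARD4, a sterol carrier protein, rose 1.61-fold. In each of these the libraries of the groups were apart, as for every called gene.

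Of the fatty acid genes, FASN, the fatty acid synthase, was at 240 and 279 CPM in IN and 420 and 385 in COMBO (1.55-fold, adjusted p = 0.00017). SCD, which makes monounsaturated fatty acids, went from 1155 and 1135 CPM to 1517 and 1497 (1.32-fold, adjusted p = 0.00025). The transcription factors themselves were not called: SREBF1 was at 232 and 275 CPM in IN and 230 and 238 in COMBO (log2 fold change -0.11, 95% interval -0.28 to 0.05), and SREBF2 at 105 and 111 against 122 and 117 (log2 fold change 0.15, 95% interval 0.03 to 0.27, adjusted p = 0.13). ACLY, which supplies cytosolic acetyl-CoA, was not called either (log2 fold change -0.12).

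Mitotic genes were lower in COMBO as a group. These genes are transcribed late in the cell cycle and build the spindle, the kinetochore and the machinery of cytokinesis, so their level in bulk RNA follows the share of cells in late G2 and mitosis as well as the level per cell, and these cannot be told apart here. Of 40 tested members, 32 fell, none rose and 8 were not called, with a median log2 fold change of -0.29. Both COMBO libraries were below IN: the median member was at -0.31 and -0.26 on the log2 scale relative to the IN mean. The count depended on the library left out, with 12 members called without COMBO replicate 1, 16 without COMBO replicate 2, 20 without IN replicate 1 and up to 36 otherwise, and 25 were called with scaling by total counts alone.

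ANLN, the actin-binding protein anillin of the cleavage furrow, fell from 224 and 208 CPM in IN to 147 and 136 in COMBO (log2 fold change -0.61 ± 0.09 SE, adjusted p = 0.0014). KIF20A, a kinesin of the central spindle, fell from 121 and 115 CPM to 81.8 and 77.7 (log2 fold change -0.57, adjusted p = 0.00012). TOP2A, the topoisomerase that untangles sister chromatids, fell from 355 and 330 CPM to 239 and 238 (log2 fold change -0.52, adjusted p = 0.00053). For these 3 genes both COMBO libraries lay below both IN libraries, as for every gene called lower. CDK1, the mitotic kinase, was at 163 and 160 CPM in IN and 120 and 126 in COMBO, and its partners CCNB1 (246 and 252 against 193 and 201 CPM) and CCNA2 (100 and 103 against 73.5 and 76.4 CPM) fell with it. FOXM1, a transcription factor of late cell cycle genes, fell from 199 and 196 CPM to 162 and 162 (log2 fold change -0.29, adjusted p = 0.0021). MKI67, the proliferation antigen, differed more within IN, at 540 and 444 CPM against 375 and 346 (adjusted p = 0.0079), and was not called without COMBO replicate 2 (adjusted p = 0.12). CDC25B and NUSAP1 were the members above 0, and neither was called (log2 fold changes 0.06 and 0.19, adjusted p = 0.63 and 0.76). NUSAP1 lacked a value in part of the alternative settings, so it is not read as an exception among mitotic genes.

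Many late cell cycle promoters carry the cell cycle genes homology region, TTTGAA, just before the start of transcription. The 60 bases before the RefSeq start of 6 called members are printed to show where it sits, with TTTGAA or its reverse complement TTCAAA in capitals. They come from GRCh38.p14: CDK1 chr10:60778418-60778477 (+ strand), ANLN chr7:36389802-36389861 (+ strand), BUB1B chr15:40161009-40161068 (+ strand), PLK1 chr16:23678829-23678888 (+ strand), CCNB2 chr15:59105086-59105145 (+ strand) and MKI67 chr10:128126424-128126483 (- strand), each written on the strand of its gene.
CDK1: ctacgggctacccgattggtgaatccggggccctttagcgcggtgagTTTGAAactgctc
ANLN: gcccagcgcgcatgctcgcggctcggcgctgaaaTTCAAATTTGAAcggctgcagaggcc
BUB1B: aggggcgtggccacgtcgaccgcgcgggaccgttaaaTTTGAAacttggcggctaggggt
PLK1: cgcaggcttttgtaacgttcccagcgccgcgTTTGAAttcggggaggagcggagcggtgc
CCNB2: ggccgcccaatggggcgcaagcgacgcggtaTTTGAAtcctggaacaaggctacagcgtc
MKI67: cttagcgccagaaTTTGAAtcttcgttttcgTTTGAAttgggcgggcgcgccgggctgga
ANLN and MKI67 hold 2 matches each and the others 1. BUB1B, CCNB2 and PLK1 fell by 0.44, 0.23 and 0.26 on the log2 scale and were not called in some fits without 1 library, where the highest adjusted p was 0.085 for BUB1B, 0.081 for CCNB2 and 0.094 for PLK1. Within 60 bases of the start the letters were found in 14 of the 34 mitotic genes with a RefSeq entry (41.2%), in 38 of the 656 genes called lower (5.79%), in 8 of the 422 called higher (1.90%) and in 294 of all 12448 tested genes with an entry (2.36%). None of the 31 DNA replication genes with an entry had a match in this window. A match is a description of the letters and not of a bound factor.

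Genes of DNA replication and nucleotide synthesis moved less as a group: 7 of 36 fell, none rose, and the median log2 fold change was -0.16. Between 4 (without COMBO replicate 1) and 13 members were called when 1 library was left out. RRM2, the regulated subunit of ribonucleotide reductase, fell from 160 and 161 CPM in IN to 99.5 and 103 in COMBO (log2 fold change -0.66 ± 0.06 SE, adjusted p = 9.3e-05). TYMS, which makes thymidylate, fell from 130 and 131 CPM to 101 and 106 (log2 fold change -0.33, adjusted p = 0.0034). Of the subunits of the replicative helicase, MCM5 and MCM7 were not called (log2 fold changes -0.06 and -0.11). For comparison, 3.17% of all tested genes were called higher and 4.32% lower. Among 23 regulators of G1 and S phase, 5 fell and 2 rose, and none of the 5 was called without COMBO replicate 2. The CDK inhibitor CDKN1A rose from 57.8 and 62.3 CPM to 78.6 and 84.2 (1.36-fold, adjusted p = 0.0010), while the G1 cyclin CCNE1 fell from 14.3 and 14.01 CPM to 11.8 and 10.2 (adjusted p = 0.019, and 0.16 without COMBO replicate 2).

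**Figure D3:**
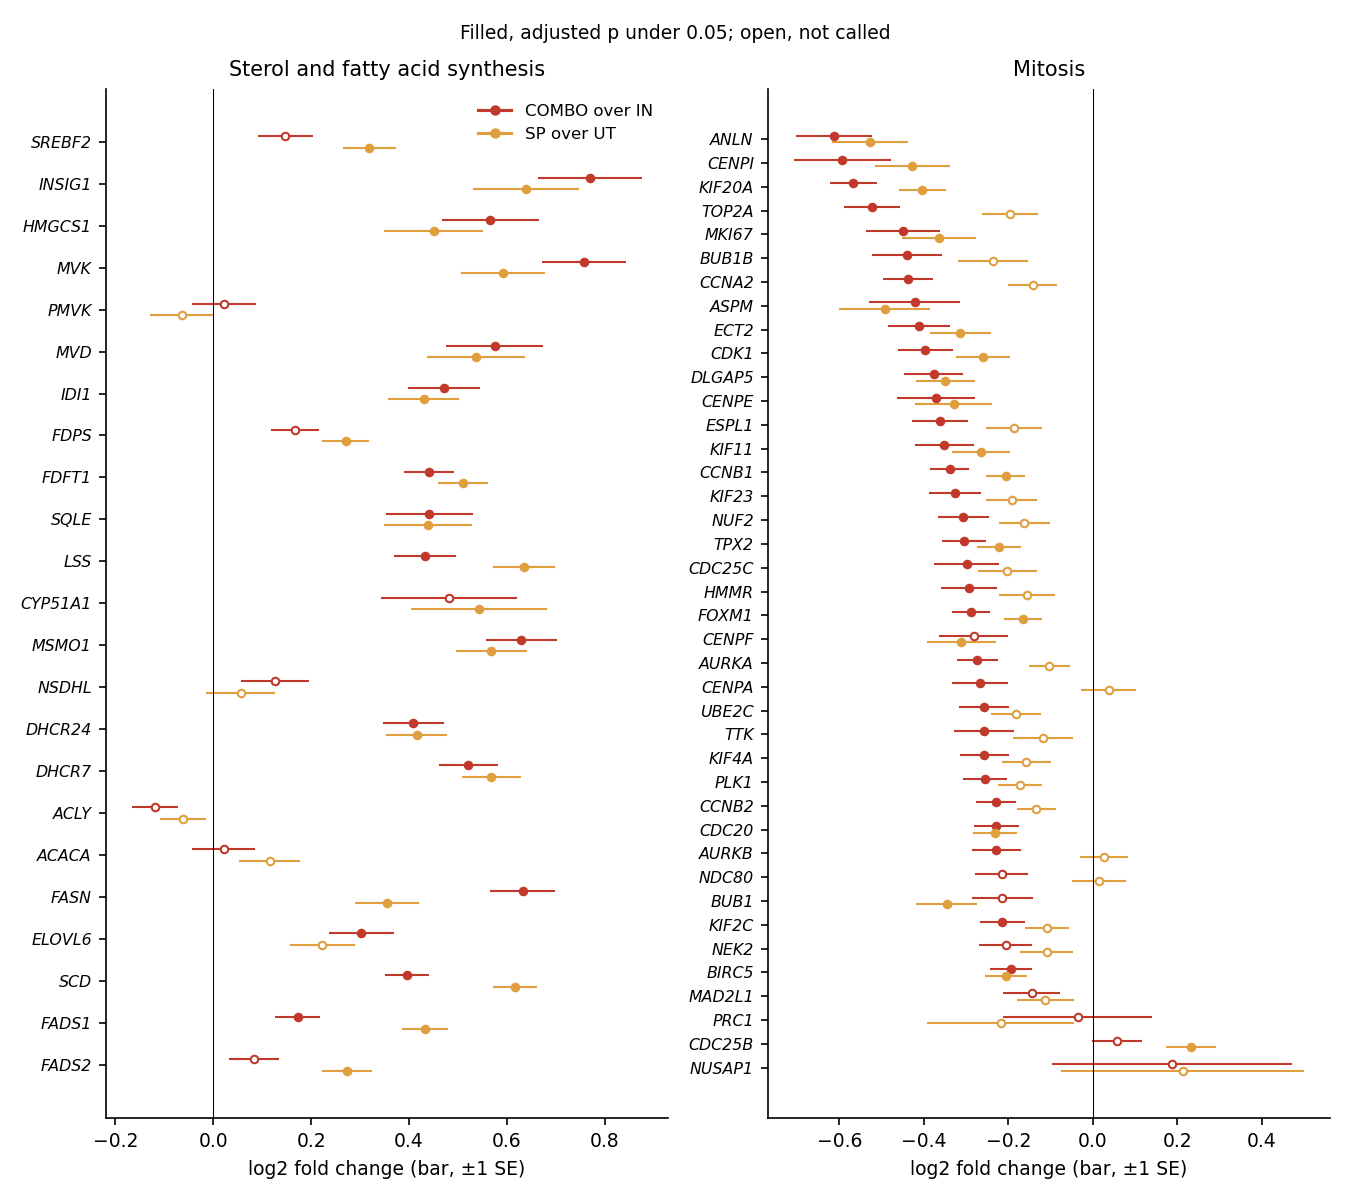
Log2 fold changes with bars of 1 SE for COMBO over IN (red) and SP over UT (orange); filled points passed an adjusted p of 0.05. Sterol and fatty acid genes (left, 23 of the list, in pathway order) lie mostly to the right of 0 in both comparisons, with 19 of the 32 in the whole list called with indisulam, and 32 of the 40 mitotic genes (right, ordered by the change with indisulam) were called lower in COMBO.

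Genes of the integrated stress response rose in part. In this response the kinases of eIF2 slow translation and ATF4 and DDIT3 switch on genes of amino acid supply and cell death. Of 31 members 9 rose, 1 fell (ALDH18A1, a proline synthesis enzyme, with a highest adjusted p of 0.10 when 1 library was left out) and 21 were not called, with a median log2 fold change of 0.16. DDIT3, the transcription factor CHOP, rose from 25.2 and 24.2 CPM in IN to 40.7 and 52.7 in COMBO (1.89-fold, adjusted p = 0.00027), and NUPR1, a stress-induced chromatin protein, from 34.8 and 37.2 to 52.7 and 68.2 (1.68-fold, adjusted p = 0.0022). The COMBO libraries differed from each other in these genes, COMBO replicate 2 being the higher one, and only 2 members of the list were called without it. ATF3 rose from 22.6 and 21.4 CPM to 28.9 and 34.3 (adjusted p = 0.0044, and 0.071 without COMBO replicate 2). The ATF4 transcript was not called (459 and 485 against 488 and 523 CPM, adjusted p = 0.29), nor were ASNS and CHAC1, targets in amino acid and glutathione metabolism (adjusted p = 0.12 and 0.066). Beside these counts and the next, 3.17% of all tested genes were called higher and 4.32% lower. Of 20 genes of the unfolded protein response of the endoplasmic reticulum, none rose and 2 fell, neither of which was called without COMBO replicate 1. XBP1, one of its transcription factors, was at 174 and 183 CPM in IN and 142 and 148 in COMBO (adjusted p = 0.0052, and 0.066 without COMBO replicate 1).

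Of 28 p53 target genes 11 rose, none fell and 17 were not called (median log2 fold change 0.20); 7 were called without COMBO replicate 2 and 12 without SP replicate 2. GDF15, a secreted stress cytokine that is also induced by ATF4 and DDIT3, rose from 34.8 and 43.2 CPM to 79.1 and 87.1 (2.14-fold, adjusted p = 9.7e-05). BBC3, the BH3-only protein PUMA, rose from 11.4 and 13.4 CPM to 19.0 and 21.6 (1.64-fold, adjusted p = 0.0017), and BAX, a pore-forming effector of apoptosis, from 77.0 and 79.3 to 99.6 and 97.3 (1.26-fold, adjusted p = 0.0023). MDM2, the p53 ligase, was not called (159 and 160 against 168 and 181 CPM, adjusted p = 0.15). In the BCL2 family 4 of 15 rose and none fell, against 3.17% higher and 4.32% lower over all tested genes. Besides BBC3 and BAX these were BMF, a BH3-only protein at low level (1.24 and 0.96 against 2.55 and 2.38 CPM, 2.23-fold, adjusted p = 0.0021), and BCL2L2, an anti-apoptotic member (37.7 and 35.8 against 44.3 and 46.3 CPM, adjusted p = 0.0083, and 0.085 without COMBO replicate 2). The anti-apoptotic genes BCL2L1 (129 and 132 against 125 and 129 CPM; log2 fold change -0.05, 95% interval -0.17 to 0.07) and MCL1 (233 and 231 against 216 and 222 CPM; log2 fold change -0.08, 95% interval -0.18 to 0.02) were not called.

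Immediate early genes and feedback regulators of MAPK signalling rose in 9 of 21 members, with none lower and a median log2 fold change of 0.23; 5 were called without IN replicate 1. IER3 was at 86.0 and 90.4 CPM in IN and 132 and 136 in COMBO. FOSL1, an AP-1 subunit, was at 21.1 and 20.9 against 31.6 and 33.5 CPM, and PHLDA1 at 96.6 and 96.2 against 137 and 151 CPM. The phosphatases DUSP1 and DUSP5, which switch off MAP kinases, rose by 0.41 and 0.35 on the log2 scale. Among YAP and TGF-beta targets 3 of 16 were called higher, against 3.17% of all tested genes. The matricellular genes CCN1 and CCN2 were not called (log2 fold changes -0.14 and -0.10).

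Lysosome and autophagy genes rose in 7 of 23 members and fell in none (median log2 fold change 0.14; 5 to 8 members with 1 library left out). SQSTM1, the autophagy receptor p62, went from 814 and 852 CPM in IN to 1266 and 1248 in COMBO (1.51-fold, adjusted p = 5.3e-05). The cholesterol exporters of the lysosome NPC1 (38.8 and 37.8 against 48.2 and 49.8 CPM) and NPC2 (27.5 and 27.3 against 37.9 and 39.7 CPM) both rose, as did the protease CTSL (209 and 216 against 278 and 282 CPM). SQSTM1 is also a target of NRF2, the regulator of antioxidant genes, and of the 24 NRF2 targets listed 5 rose and 2 fell, and 1 was called higher without COMBO replicate 1. GCLM, a subunit of glutamate-cysteine ligase, rose from 275 and 280 CPM to 337 and 362 (adjusted p = 0.0050, and 0.075 without COMBO replicate 2).

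Host genes of small nucleolar RNAs, whose spliced transcripts are mostly short-lived, rose in 7 of 16 members (median log2 fold change 0.13; 3 called without COMBO replicate 2). SNHG1 went from 125 and 122 CPM to 173 and 183 (1.44-fold, adjusted p = 0.00068) and SNHG3 from 58.3 and 56.8 to 73.6 and 73.1 (adjusted p = 0.0014). GAS5 and ZFAS1, of the same kind, were not called (log2 fold changes 0.12 and 0.08).

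Heat shock genes, which encode chaperones, had a median log2 fold change of -0.14. Of 16 members 5 fell and none rose, against 4.32% lower and 3.17% higher over all tested genes. None of these 5 was called without COMBO replicate 2, where the adjusted p of DNAJA1 was 0.13 and that of HSPA1A 0.22. DNAJA1, a cochaperone, was at 442 and 431 CPM in IN and 367 and 346 in COMBO (adjusted p = 0.012), and HSPA1A, an inducible HSP70, at 36.5 and 39.1 against 32.8 and 25.8 CPM (adjusted p = 0.028), with nearly identical coding sequence in HSPA1B, so that reads could be split between both genes. Transcripts of the mitochondrial genome, 13 tested, were all below 0 with a median of -0.25, but none was called, and 8 were called lower without IN replicate 2. They made up 6.29% and 5.71% of the counts on genes in IN and 5.48% and 4.63% in COMBO.

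The remaining lists are given beside the shares over all tested genes, of which 3.17% were called higher and 4.32% lower. Whether any list differed from these shares was not tested. In glycolysis and hypoxia 4 of 24 rose and 1 fell, among NF-kB targets 2 of 19 rose and 1 fell, among interferon-stimulated genes 1 of 24 rose and 1 fell, and among epithelial and mesenchymal genes 2 of 25 fell. Of 77 cytosolic ribosomal protein genes 1 rose and 1 fell, and of 16 nonsense-mediated decay genes 1 rose. Of 19 factors of the U2 complex and branch site 1 rose and 1 fell. Of 47 replication-dependent histone genes 26 were tested and none was called. Together these 26 reached only 51.7 and 55.0 CPM in IN and 50.8 and 51.6 in COMBO, in polyA-selected libraries, so they say little about histone transcripts.

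Outside these lists, the genes with the largest changes were of varied function. IGFL2-AS1, a long noncoding RNA at chr19:46189029-46203160, rose from 5.004 and 4.63 CPM to 16.7 and 14.8 (3.27-fold, adjusted p = 5.6e-07). LINC00511, another, rose from 14.9 and 15.3 CPM to 24.2 and 29.6 (1.78-fold, adjusted p = 0.00021). IL21R, a cytokine receptor at low level, had 49 and 39 counts in IN and 232 and 232 in COMBO (5.02-fold, adjusted p = 3.6e-06), and is named after its values were seen. The groups were apart in all 3, as for every called gene. Of the decreases, FMNL1-DT, a divergent noncoding transcript at chr17:45190931-45222274, was the largest among genes with an average log2 CPM of 3 or more, from 30.4 and 27.2 CPM to 17.1 and 13.1 (log2 fold change -0.93, adjusted p = 0.00036). Both IGFL2-AS1 and FMNL1-DT overlap genes on the other strand, and the strand setting of the counting was not given in the sources used here.

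SLC12A2, the sodium, potassium and chloride cotransporter NKCC1, fell from 273 and 266 CPM in IN to 168 and 170 in COMBO (log2 fold change -0.67 ± 0.05 SE, adjusted p = 1.2e-05). It lies at chr5:128083766-128189677, and it was the 1 called member among 17 ion and volume transporters. Its level was 438 and 443 CPM in UT and 354 and 379 in SP, so COMBO was the lowest of the 4 groups. OR51E1, an olfactory receptor gene, fell from 57.3 and 58.5 CPM to 39.9 and 33.6 (log2 fold change -0.65, adjusted p = 0.00036). GJB1, a gap junction protein, fell from 18.8 and 21.2 CPM to 13.03 and 12.4 (log2 fold change -0.65, adjusted p = 0.014, and 0.14 without COMBO replicate 2).

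Transcripts of the genes that the drugs act on or through differed little between COMBO and IN. Their levels do not measure RBM39 protein, which indisulam removes, or the activity of SRPK1, which SPHINX31 inhibits. RBM39 was at 361 and 360 CPM in IN and 373 and 391 in COMBO (log2 fold change 0.08, 95% interval -0.03 to 0.20, adjusted p = 0.41), against 154 and 157 in UT and 166 and 184 in SP. SRPK1 was at 104 and 101 against 110 and 109 CPM (log2 fold change 0.09, 95% interval -0.03 to 0.21, adjusted p = 0.35). DCAF15 was at 19.9 and 21.9 against 21.4 and 19.9 CPM, where the groups overlapped (log2 fold change -0.01, 95% interval -0.17 to 0.14). CAND1, which exchanges the substrate receptors of cullin ligases, fell from 267 and 263 to 226 and 225 CPM (log2 fold change -0.23, adjusted p = 0.022) and was not called without COMBO replicate 2 (adjusted p = 0.13).

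Over all tested genes, 3.17% were called higher and 4.32% lower. Among the kinases of SR proteins 2 of 9 rose, both of the CLK family, which act in the nucleus. CLK3 went from 42.6 and 42.9 CPM to 55.8 and 53.3 (1.28-fold, adjusted p = 0.0020) and CLK4 from 17.9 and 17.7 to 22.2 and 21.9 (1.24-fold, adjusted p = 0.025, and 0.11 without COMBO replicate 2). CLK1 was at 45.6 and 39.9 against 49.8 and 49.2 CPM (adjusted p = 0.15) and SRPK2 at 59.0 and 54.9 against 62.2 and 63.7 (adjusted p = 0.14). Of 14 genes for SR proteins 1 was called higher (SRSF8) and 1 lower (TRA2A), and both calls were lost without IN replicate 1 (adjusted p = 0.16 and 0.11). SRSF1 was at 131 and 128 CPM in IN and 127 and 128 in COMBO (log2 fold change -0.02, 95% interval -0.13 to 0.09), and SRSF2 at 231 and 241 against 231 and 213 (log2 fold change -0.09, 95% interval -0.24 to 0.06). VEGFA, a growth factor whose splicing SRPK1 is known to influence, rose from 116 and 111 CPM to 136 and 138 (log2 fold change 0.27, adjusted p = 0.014, and 0.10 without COMBO replicate 2). These counts sum all transcripts of a gene, so they carry no information on its isoforms.

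The same contrast was measured without indisulam in SP against UT, which shares no library with COMBO against IN. There 1606 genes were called (8.61%), 921 higher (4.94%) and 685 lower (3.67%). The number fell to 482 without UT replicate 1, 539 without UT replicate 2 and 697 without SP replicate 1. The split was 1341 higher and 515 lower with total counts alone, 1314 and 1352 with a GC correction, and 754 and 778 without SP replicate 2. Of the 1399 genes called in COMBO against IN, 1324 (94.6%) had the same direction in SP against UT, against 66.9% of all tested genes. The share was 95.3% of the genes called higher, where 48.8% of all tested genes were higher in SP, and 94.2% of the genes called lower. Both comparisons called 640 genes, all in the same direction, which is 45.7% of the calls with indisulam and 39.9% of those without. Across the 9980 genes whose average log2 CPM was 3 or more, the log2 fold changes of both comparisons had a Pearson correlation of 0.71 and a Spearman correlation of 0.64. Across all tested genes these were 0.36 and 0.40. The correlations are given as a description because genes are not independent replicates.

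**Figure D4:**
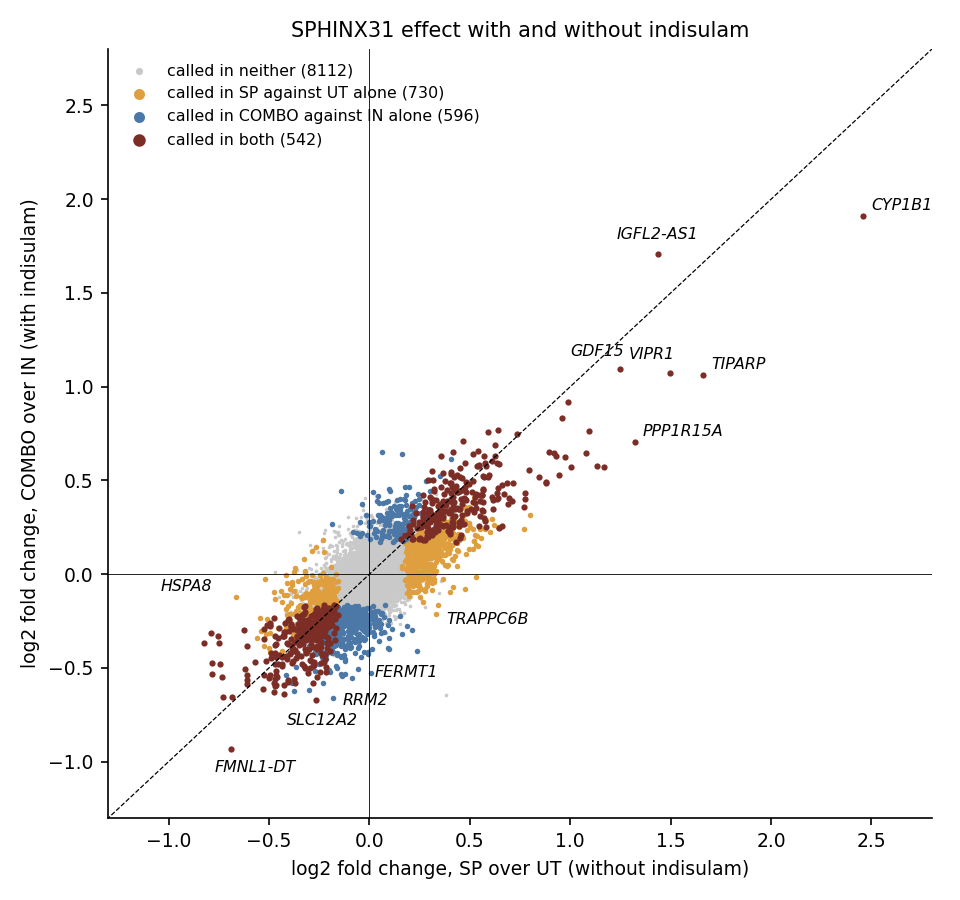
Log2 fold change of SP over UT (horizontal) against COMBO over IN (vertical) for the 9980 genes whose average log2 CPM was 3 or more; colours give the comparison in which a gene was called and the dashed line marks equal effects. CYP1B1, TIPARP, VIPR1 and PPP1R15A lie below the line, with larger effects without indisulam, RRM2 and FERMT1 lie below it on the negative side, with larger decreases with indisulam, and HSPA8 lies above it.

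Whether the effect of SPHINX31 differed with and without indisulam was tested as an interaction, and no gene passed an adjusted p of 0.05 with edgeR and the filter on low counts used throughout (smallest adjusted p = 0.18). In simulated data the same test called 1.52% of interactions of 0.25 (log2) and 50.7% of those of 0.5, so the absence of calls does not show equal effects. The simulated libraries were drawn independently around a mean common to the groups, without the correlated library deviations of the data. These rates are therefore a guide and not the power of the test in the data. At an unadjusted p under 0.05 there were 1584 genes (8.49%). DESeq2 called 32 genes, edgeR with a loose filter called 94, and leaving out UT replicate 1 or SP replicate 2 gave 1 call each. Of the 13 AHR targets, 7 had an unadjusted interaction p under 0.05. CYP1B1 rose by 2.46 on the log2 scale without indisulam and 1.91 with it (interaction -0.55, unadjusted p = 5.7e-05), and TIPARP by 1.66 and 1.06 (interaction -0.60, unadjusted p = 5.4e-05). For CYP1A1 the effects were 5.36 and 3.43 (interaction -1.93, unadjusted p = 0.0065). In the other direction of effect, SLC12A2 fell by 0.27 without indisulam and by 0.67 with it (unadjusted p = 4.6e-05). FERMT1, an integrin activator of epithelia, was at 94.3 and 96.8 CPM in UT and 89.8 and 93.7 in SP, but fell from 52.2 and 52.7 in IN to 36.0 and 37.9 in COMBO (interaction -0.45, unadjusted p = 4.3e-05). RRM2 had log2 fold changes of -0.18 without and -0.66 with indisulam (unadjusted p = 7.5e-05).

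HSPA8, the constitutive HSP70, was at 1109 and 1053 CPM in UT and 619 and 742 in SP, against 1766 and 1753 in IN and 1679 and 1554 in COMBO (interaction 0.54, unadjusted p = 0.00011). TRAPPC6B, a vesicle tethering factor, had opposite signs, 0.34 without indisulam and -0.17 with it, where it was not called (adjusted p = 0.11; interaction unadjusted p = 3.2e-05). Of these 8 genes, the loose filter called all 8 and DESeq2 all but CYP1A1, for which it gave no adjusted p, so whether these differences passed the adjustment depended on the tool and the filter. The loose filter kept genes with a total of at least 1 count. With it the interaction of HSPA8 was still 0.54, but its adjusted p went from 0.18 to 4.9e-11. The estimate of the spread thus moved and not the effect, so these calls add no separate support.

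By list, the medians with and without indisulam were 0.37 and 0.39 for cholesterol and fatty acid synthesis and 0.59 and 0.53 for AHR targets, although 9 of the 13 AHR targets had a lower log2 fold change with indisulam than without it. The 0.59 is the value of AHRR, which is near the detection limit and was not called. With a small offset added to each CPM, the median AHR target relative to the IN mean was at 0.42 and 0.53 in COMBO. It was at 0.91 and 0.78 in SP and at 0.13 and 0.13 in UT. Mitotic genes had medians of -0.29 and -0.19, with 32 called lower with indisulam and 17 without. In the heat shock list the median was -0.14 with indisulam and -0.26 without, and 5 against 10 members were called lower. Differences between these medians were not tested.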

How the data were processed

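RNA of 8 A549 libraries (polyA-selected, stranded kit, paired-end reads) had been counted per gene. Per the labels, the authors aligned reads with HISAT2 2.2.1 to GRCh38 and counted with HTSeq, and the deposited values are raw counts of reads per gene. The strand setting and the annotation of the counting were not given in the sources used here, so antisense partners could share reads. Between 83.0% and 86.0% of the tallied reads lay on genes, and rows of unassigned reads were left out. Genes passing edgeR's filterByExpr were scaled by TMM and fitted with edgeR 4.0.16 (quasi-likelihood, a mean per group, all 8 libraries for the spread, 4 residual degrees of freedom), with Benjamini-Hochberg adjustment over 18661 genes. CPM are TMM-scaled. Intervals are 95% and two-sided tests were used throughout. Gene positions come from GENCODE 44 and promoter sequences from RefSeq.

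The labels number replicates 1 and 2 in each group, and nothing says that a number marks a shared culture. Deviations of same-numbered libraries correlated at 0.0863 between IN and COMBO, 0.455 between UT and SP, and -0.569 to 0.167 between the other pairs of groups. Named genes were chosen by size, list, link to the drugs or interaction p, and other named genes were chosen after their values were seen. The comparison and the lists were chosen with earlier results of these data known. In simulated data of 18661 genes, 200 were changed, all drawn from genes with a mean above 1 CPM. For COMBO against IN, 24.2%, 73.1% and 98.5% of changes of 0.25, 0.5 and 1 (log2) were called. These were 16, 49 and 66 genes, beside 15 false calls. The share of false calls among all calls was thus above the 0.05 of the adjusted p, in a single simulated data set. For the interaction the shares were 1.52%, 50.7% and 85.1%, with 4 false calls. Alternatives were DESeq2 1.42.0, other scalings and filters, a GC correction, a replicate block and leaving out each library.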

Additional observations from a re-analysis of the deposited data

How the results depend on the processing

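Of the 1399 genes called in COMBO against IN, the number became 2226 at an adjusted p under 0.1 and 2230 with a GC correction (1002 higher and 1224 lower, and 1003 and 1227). Scaling by total counts alone gave 942 higher and 498 lower, which moved the share of higher calls from 42.3% to 65.4%. At 1.5-fold, DESeq2 called 130 genes, the loose filter 334 and an adjusted p under 0.1 called 335. For SP against UT an adjusted p under 0.1 gave 2642 calls and the GC correction 2666. The interaction had 32 calls with DESeq2 and 94 with the loose filter. The share of calls with the same direction in SP against UT was 92.5% with the loose filter and 92.4% at an adjusted p under 0.1. Leaving out 1 library gave 440 to 1612 calls (204 to 691 higher, 236 to 922 lower, 108 to 219 past 1.5-fold), 482 to 1810 for SP against UT, 0 to 1 for the interaction and a share of 90.2% to 98.0%. A fit with the replicate number as a block called 1169 genes; the numbers were not taken as pairs. Near 0, the log2 fold change of SRSF1 changed sign with total counts alone (0.026), the GC correction (0.026) and that correction with the replicate block (0.026), and that of DCAF15 with total counts alone (0.030). Without 1 library the log2 fold change was -0.039 to 0.0007 for SRSF1, -0.080 to 0.049 for DCAF15, -0.023 to 0.053 for NQO1 and -0.23 to 0.0096 for SREBF1, none of them called. The cause of these changes was not tested.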

Other observations

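Reads that overlapped more than 1 gene made up 6.03% and 5.87% of the tallied reads in IN and 4.99% and 4.96% in COMBO, against 5.22% and 4.88% in UT and 5.94% and 4.82% in SP. Reads on no annotated gene made up 5.48% and 4.49% in IN and 5.87% and 4.87% in COMBO, against 3.94% and 4.34% in UT and 3.67% and 3.93% in SP. The part of these shares in the results was not tested.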
